A study of Mus musculus with 6 samples.

Results

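The plasminogen activators and their inhibitors were followed through 4 genes in primary mouse granulosa cells (GCs), the cells of the ovarian follicle that nurse the oocyte. The 4 genes were *Plau*, *Plat*, *Plaur* and *Serpine2*, chosen by symbol, and all 4 were found among the 16300 genes measured. RNA-seq was performed on 6 libraries, 3 of control GCs kept in medium and 3 of GCs given 25 nM dihydrotestosterone (DHT), an androgen that is not converted to estrogen, for 24 h. All the cells came from wild type C57BL/6J females aged 8 to 9 weeks and taken at estrus, were cultured in serum and then deprived of it before treatment, and several animals were pooled for each culture. A single dose and a single time were measured, and the labels call the extracted material whole ovary although they give the cell type as granulosa cells.

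Plasminogen is a circulating zymogen that is cut to the protease plasmin at the surface of cells and in the matrix. The cut is made by urokinase, the product of *Plau*, and by tissue-type plasminogen activator, the product of *Plat*. *Plaur* encodes the receptor that holds urokinase on the cell surface, and *Serpine2* encodes protease nexin-1, a secreted serpin that blocks both activators and also thrombin. In the ovary this system is known for breaking down the follicle wall around ovulation, and GCs are a known source of both activators and of their inhibitors.

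Both activators fell with DHT and the inhibitor rose, but the call of the inhibitor was lost when any 1 of the 3 DHT libraries was left out (adjusted p = 0.068 to 0.098, limma) and under quantile normalisation. Without the intensity trend of the fit, both *Serpine2* and *Plat* lost their calls (adjusted p = 0.12 and 0.065, limma). *Plau* fell 2.77-fold, *Plat* fell 1.38-fold and *Serpine2* rose 1.35-fold, while *Plaur* did not pass the test. Of the 4 genes, 2 passed as lower and 1 as higher, at an adjusted p of at most 0.05 in the moderated test of limma with Benjamini-Hochberg adjustment over 16292 genes. Over all those genes 4.66% passed as lower and 6.52% as higher. The groups did not overlap for 3 of the 4 genes, against 30.6% of all genes tested. The median log2 fold change, which is DHT minus control throughout, was -0.33 over the 4 genes and -0.0052 over all genes tested.

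Levels are given as normalised read counts, which are reads divided by the size factor of the library, and as the same values per kb of exonic length where genes are set side by side. That length merges all annotated exons of a gene, and the transcript length used in these cells was not measured. Orders and ratios between genes depend on it. Between 36111177 and 41928585 reads were counted on genes per library. Each library lay closer on average to the libraries of its own group than to those of the other. Of 9 listed granulosa markers 8 were measured, and *Cyp19a1* was not. The 8 summed to 266602 to 277496 normalised counts in control and 280429 to 299420 with DHT. In every library *Cyp11a1* and *Gja1* gave the largest parts, so the sum mainly follows this pair and was not a test of GC identity. *Cyp11a1* passed as higher, with 80557 to 97025 in control and 108458 to 132928 with DHT. *Inha* and *Foxl2* passed as lower, while *Fshr* and *Amh* were detected at no more than 168 and 196 normalised counts. The listed markers of theca and stroma, endothelium and leukocytes summed to no more than 605 normalised counts per set in any library, and *Csf1r*, a macrophage receptor, was the only one to pass, as lower. Those of surface epithelium summed to between 572.9 and 929.3 in control and 392.4 and 923.9 with DHT, and 0 of 4 passed. Smooth muscle markers went from 4632 to 6802 in control to between 8672 and 10300 with DHT, and 3 of 4 (*Acta2*, *Myh11* and *Cnn1*) passed as higher. *Acta2*, a smooth muscle actin, held most of that sum, and its part in the changes of the plasminogen genes was not tested. Fewer cells of a type and less RNA per cell cannot be told apart in such bulk libraries.

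**Figure D1:**
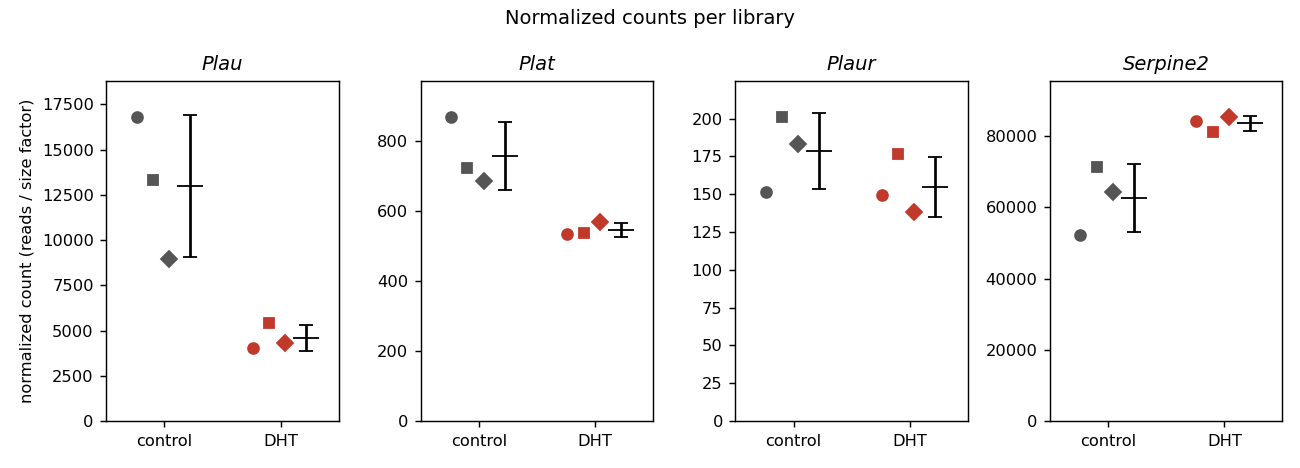
Normalised read counts of the 4 genes in each library, on linear axes that start at 0 and differ in range between panels. Circles, squares and diamonds are replicates 1, 2 and 3, and bars show the mean ± SD of 3 libraries. The control and DHT libraries do not overlap for *Plau*, *Plat* and *Serpine2* and overlap for *Plaur*.

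*Plau* (ENSMUSG00000021822, chr14:20836660-20843385 on the plus strand of GRCm38, 11 merged exon blocks, 2367 exonic bases) had 16783, 13305 and 8955 normalised counts in control replicates 1, 2 and 3. With DHT it had 4045, 5416 and 4306. Every DHT library lay below every control library, and the lowest control value was 1.65 times the highest DHT value. The mean went from 13014 ± 3922 (SD, n = 3) to 4589 ± 728 (SD, n = 3), so the mean fell by 64.7%. The fitted log2 fold change was -1.47 (SE 0.20, 95% interval -1.92 to -1.02, adjusted p = 0.0019 by limma). It was the only one of the 4 genes that also passed the fold threshold the study used, an absolute log2 fold change above 1, which with the same adjusted p was passed as lower by 0.399% of all genes tested. Only 35 of the 16292 genes had a lower log2 fold change.

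The control libraries differed in *Plau* among themselves. The highest control value was 1.87 times the lowest, and the coefficient of variation was 30.1% in control and 15.9% with DHT. The SD of log2 *Plau* among controls, 0.46, stood at percentile 99.5 of the 7029 genes averaging 1000 normalised counts or more, for which the median SD was 0.056. With DHT the SD was 0.22, at percentile 99.3. Between 3957 and 16962 reads lay behind each value, so that counting error was small beside this spread. Without control replicate 1, which was the highest, or control replicate 3, which was the lowest, *Plau* still passed.

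*Plat* (ENSMUSG00000031538, chr8:22757727-22782844 on the plus strand of GRCm38, 13 merged exon blocks, 6241 exonic bases) had 865.8, 720.2 and 683.7 normalised counts in the control libraries. The DHT libraries had 532.3, 535.6 and 568.1, all below the lowest control. The mean went from 756.5 ± 96.3 to 545.3 ± 19.8 (SD, n = 3 each), so the mean fell by 27.9%. The fitted log2 fold change was -0.46 (SE 0.089, 95% interval -0.67 to -0.26, adjusted p = 0.011, limma). *Plat* therefore fell with *Plau* but by less, and the intervals of the log2 fold changes of these genes did not meet. The difference between the falls was not itself tested. Control replicate 1 was the highest library for both activators.

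Control replicate 1 also held the most oocyte and theca or stroma marker reads. The 6 listed oocyte markers summed to 790.6, 321.5 and 306.6 normalised counts in control and to 528.4, 43.6 and 568.1 with DHT. In DHT replicate 2, *Zp3* was listed at 0 and *Gdf9*, the highest of the 6 there, was at 28.4 normalised counts. No oocyte or theca and stroma marker passed the test. The theca and stroma sums ranged from 244 to 499 in control and from 142 to 300 with DHT, and the part of either set in the level of the activators was not tested. Without control replicate 1, both activators still passed as lower.

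*Plaur* (ENSMUSG00000046223, chr7:24462484-24475968 on the plus strand of GRCm38, 6 merged exon blocks, 2617 exonic bases) had 151.4, 200.7 and 183.4 normalised counts in control and 149.7, 176.7 and 138.2 with DHT. The groups overlapped, since control replicate 1 lay below DHT replicate 2. The means were 178.5 ± 25.0 and 154.9 ± 19.8 (SD, n = 3 each). The log2 fold change was -0.20 with a 95% interval of -0.52 to 0.12 (adjusted p = 0.43, limma). This interval holds no change, and also a fall as large as the -0.46 of *Plat*, so the receptor transcript is not shown to be unaltered. Between 127 and 216 reads lay behind each value, the fewest of the 4 genes.

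*Serpine2* (ENSMUSG00000026249, chr1:79794197-79861180 on the minus strand of GRCm38, 10 merged exon blocks, 8287 exonic bases) had 52320, 71438 and 64279 normalised counts in control and 84240, 81277 and 85293 with DHT. Every DHT library lay above every control, with the lowest DHT value 1.14 times the highest control value. The mean went from 62679 ± 9659 to 83603 ± 2082 (SD, n = 3 each), a rise of 33.4%. The fitted log2 fold change was 0.43 (SE 0.098, 95% interval 0.21 to 0.65, adjusted p = 0.024, limma). A larger rise was found for 1173 of the 16292 genes.

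Across the 16 alternative fits, the call was lost in 5 for *Serpine2*, in 1 for *Plat* and in 0 for *Plau*. *Serpine2* lost it without DHT replicate 1, 2 or 3 (adjusted p = 0.068, 0.070 and 0.098, limma), without the intensity trend, and under quantile normalisation, where the log2 fold change was 0.27. It stayed positive under every alternative run, between 0.27 and 0.53. The spread lay in the controls, where the coefficient of variation was 15.4% against 2.49% with DHT. Control replicate 1, the highest for *Plau* and *Plat*, was the lowest for *Serpine2*.

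The sequence just upstream of the start is shown for *Plaur* and *Serpine2*, the receptor and the inhibitor gene. They are the 250 bases before the annotated start in RefSeq on GRCm38.p6, printed 5′ to 3′ on the strand of the gene, at chr7:24462233-24462482 (plus) and chr1:79858666-79858915 (minus). For *Serpine2* the start in RefSeq lies 2515 bases inside the gene span given above, which comes from GENCODE, so its window is not upstream of the outermost GENCODE start. Which start these cells use was not tested. Of the 4 genes 2 were matched in this collection, and *Plau* and *Plat* are named only. Capitals mark matches to GGGCGG, the GC box bound by SP family factors, and to TGANTCA, the AP-1 motif.
Plaur: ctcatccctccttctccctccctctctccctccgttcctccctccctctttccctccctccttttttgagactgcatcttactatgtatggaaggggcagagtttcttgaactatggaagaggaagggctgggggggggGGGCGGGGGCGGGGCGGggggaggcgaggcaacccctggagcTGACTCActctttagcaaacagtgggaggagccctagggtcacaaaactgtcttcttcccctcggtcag
Serpine2: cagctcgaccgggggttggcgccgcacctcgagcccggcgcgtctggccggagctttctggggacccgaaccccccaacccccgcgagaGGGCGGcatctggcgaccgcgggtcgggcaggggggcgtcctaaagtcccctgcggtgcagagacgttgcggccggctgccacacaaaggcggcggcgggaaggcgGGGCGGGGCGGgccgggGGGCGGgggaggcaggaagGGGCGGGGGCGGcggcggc
The *Plaur* window held 1 AP-1 match, 69 bases upstream of the start, and 3 GC boxes at 111, 105 and 100 bases, the last 2 of which overlap. The *Serpine2* window held 6 GC boxes, at 161, 55, 50, 38, 19 and 13 bases upstream, of which those at 55 and 50 overlap, and no AP-1 match. GC content was 59.6% for *Plaur* and 78.8% for *Serpine2*, which placed the latter at percentile 98.3 of the 32851 windows of this length. Neither held AGAACA, the hexamer recognised by the androgen receptor, or TGACGTCA, the cyclic AMP response element. Both strands were searched, and among all windows 32.7% held a GC box, 6.75% an AP-1 motif, 16.1% AGAACA and 1.55% the cyclic AMP response element. These matches describe the letters of the windows only.

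The balance between activator and inhibitor was described as the ratio of their normalised counts per kb within each library. *Serpine2* stood at 0.890, 1.53 and 2.05 times *Plau* in control replicates 1, 2 and 3. With DHT it stood at 5.95, 4.29 and 5.66 times *Plau*. Control replicate 1 was thus the only library in which *Plau* was above *Serpine2* per kb. This order rests on the exonic lengths of 2367 and 8287 bases. Before division by length, *Plau* had 16783 and *Serpine2* 52320 normalised counts in that library. On the log2 scale *Plau* over *Serpine2* went from -0.49 ± 0.61 to -2.39 ± 0.25 (SD, n = 3 each), a difference of -1.90, and the groups did not overlap. This difference restates the fall of *Plau* (-1.47) and the smaller rise of *Serpine2* (0.43), whose call was lost in 5 of 16 alternatives. The other ratios likewise restate the fold changes of their genes. No p is given for any of these ratios, since the genes were chosen together.

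*Plat* was far below *Serpine2* in both groups. *Serpine2* per kb was 45.5, 74.7 and 70.8 times *Plat* in control and 119, 114 and 113 times with DHT. On the log2 scale *Plat* over *Serpine2* went from -5.95 ± 0.39 to -6.84 ± 0.040 (SD, n = 3 each), a difference of -0.89. The 3 DHT libraries were close together in this ratio and all below the control libraries.

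The ratios of *Plau* to *Plat* and to *Plaur* follow from the larger fall of *Plau* and are not separate changes. *Plau* over *Plat* per kb was 5.67, 5.59 and 5.10 on the log2 scale in control and 4.31, 4.72 and 4.31 with DHT, a difference of -1.01 without overlap. *Plau* remained above *Plat* in every library. *Plau* over its receptor gene *Plaur* was 6.91, 6.18 and 5.73 in control and 4.88, 5.06 and 5.08 with DHT, a difference of -1.27 without overlap. The ligand transcript therefore stayed well above the receptor transcript per kb in all 6 libraries.

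**Figure D2:**
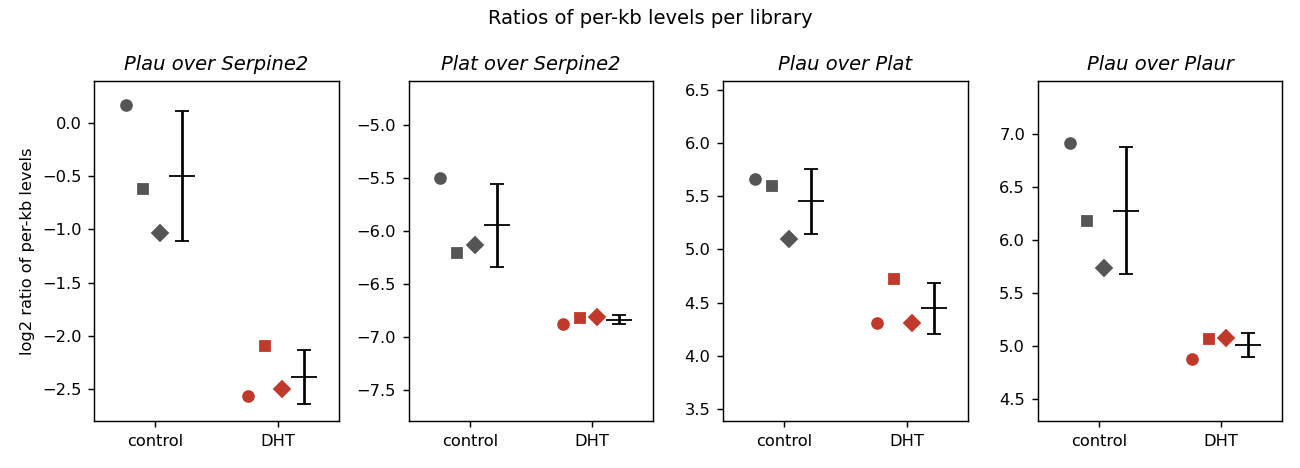
Log2 ratios of per-kb levels in each library for *Plau* over *Serpine2*, *Plat* over *Serpine2*, *Plau* over *Plat* and *Plau* over *Plaur*, with mean ± SD of 3 libraries as bars. The panels span the same range of log2 units but do not start at 0, and in each the 3 DHT libraries lie below the 3 control libraries.

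Other ways to form the ratio were added after the data were examined. With *Plau* and *Plat* summed, the difference was -1.86 against *Serpine2*. It was -1.72 against the sum of the 5 serpins listed as inhibitors of the activators that were measured and are reported here. *Serpinb6a* held 4443 of the 12043 normalised counts per kb of that sum in control and 4420 of 14568 with DHT. Whether it acts on the activators in these cells was not tested.

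Per kb, *Serpine2* and *Plau* were among the abundant transcripts of these cells. *Serpine2* stood at 7564 ± 1166 normalised counts per kb in control and 10088 ± 251 with DHT (SD, n = 3 each), percentiles 98.9 and 99.3 of the genes with a length. *Plau* went from 5498 ± 1657 to 1939 ± 308 per kb, from percentile 98.5 to 94.7. *Plat* stood at 121.2 ± 15.4 and 87.4 ± 3.17 per kb, percentiles 44.3 and 38.9. *Plaur* was lowest, at 68.2 ± 9.57 and 59.2 ± 7.55 per kb.

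The order of the 24 measured genes of a wider plasminogen list put these levels in context. In control, *Serpine2* ranked the third per kb after *Thbs1* and *S100a10*, and *Plau* the sixth. The control range of mean ± SD of *Serpine2* overlapped those of *Eno1* and *Anxa2*, so its place above them did not hold beyond the spread. That of *Plau* overlapped those of *Serpine2*, *Eno1*, *Anxa2* and, in the seventh place, *Serpinb6a*, so that the place of *Plau* among them did not hold either. With DHT, *Serpine2* ranked the second, with a range that overlapped that of *S100a10* in the third place, and *Plau* ranked the seventh, below *Serpinb6a* at 4420 ± 80.5 per kb. *Plat* and *Plaur* ranked next to each other in both groups, the fourteenth and the fifteenth, and their ranges of mean ± SD did not overlap in either.

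**Figure D3:**
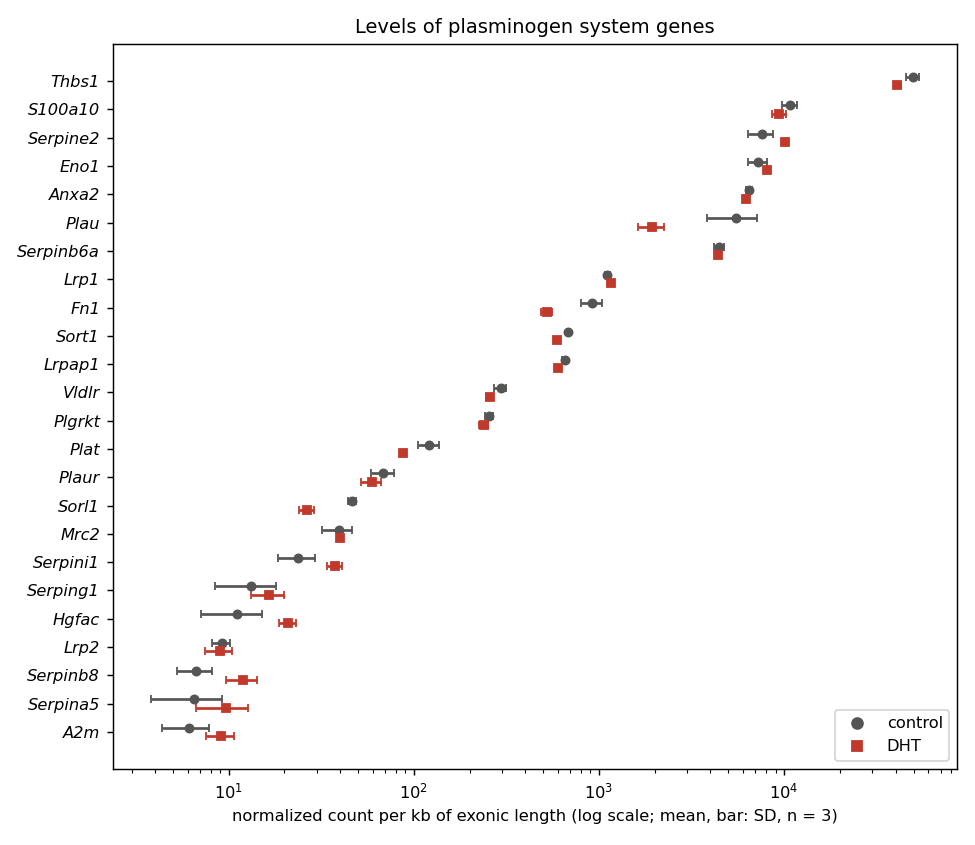
Mean normalised count per kb of exonic length, on a log axis, for the measured genes of the wider list in control and DHT libraries, with SD over 3 libraries. *Plau* moves from 5498 to 1939 per kb, while *Serpine2* moves from 7564 to 10088.

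The wider list held 37 genes of the pathway, of which 24 were measured and tested; the others were not analysed here. Without the 4 genes above, 20 remained: 2 passed as higher (10%), 3 as lower (15%) and 15 did not pass, against 6.52% higher and 4.66% lower over all genes tested. Their median log2 fold change was -0.022, and 10 of the 20 had groups that did not overlap, against 30.6% of all genes tested. *Serpini1*, which encodes neuroserpin, an inhibitor of tissue-type activator, had 136.5, 214.7 and 169.5 normalised counts in control and 287.7, 242.2 and 288.4 with DHT, a log2 fold change of 0.67 (adjusted p = 0.029, limma). This call was lost in 6 of 16 alternatives, among them without control replicate 1 or any of the DHT replicates. *Serpinb8* and *Serpina5* had log2 fold changes of 0.82 and 0.57 that did not pass (adjusted p = 0.052 and 0.40, limma), the latter on 7.92 to 26.1 normalised counts. *Serpinb8* was called higher with a pseudocount of 8 (adjusted p = 0.047, limma). *Serpinb6a* had a log2 fold change of -0.0056 (adjusted p = 0.96, limma), and its exons overlap those of 3 genes on the opposite strand. Of the 5 measured serpins of this class, *Serpine2* included, 2 passed as higher and 0 as lower by limma, edgeR and DESeq2 alike, against 6.52% and 4.66% of all genes in limma. An unadjusted p under 0.05 in limma was found for 3 as higher and 0 as lower, against 13.4% and 11.8% of all genes, and a class of 5 genes is too small to be set apart by such shares.

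Most genes listed under clearance encode receptors that take up activators bound to their inhibitors or sort them inside the cell. *Lrpap1* encodes a chaperone of such receptors that blocks ligand binding. Of the 7 genes of this class, 2 fell and 0 rose in limma, against 4.66% and 6.52% of all genes tested. An unadjusted p under 0.05 was found for 4 as lower, *Lrpap1* among them, and 0 as higher, against 11.8% and 13.4% of all genes, and the class is again small. *Vldlr* was also called lower by DESeq2 and without control replicate 3, and neither edgeR nor DESeq2 called any higher. *Sorl1*, a sorting receptor that binds urokinase and its complexes, had 527.4, 550.1 and 501.2 normalised counts in control and 312.2, 268.4 and 316.7 with DHT. Its log2 fold change was -0.82 (adjusted p = 0.00056, limma). *Sort1*, which encodes sortilin, fell by 0.21 on the log2 scale (adjusted p = 0.0042, limma). *Lrp1*, the main endocytic receptor for these complexes, had a log2 fold change of 0.062 and *Vldlr* one of -0.20 (adjusted p = 0.38 and 0.069, limma). *Lrpap1*, *Lrp2* and *Mrc2* also did not pass, with log2 fold changes of -0.11, -0.038 and 0.049.

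Of the 4 genes for binding of plasminogen at the cell surface, 0 passed by limma, edgeR or DESeq2, and 1, *S100a10*, had an unadjusted p under 0.05 in limma, as lower, and was called lower when control replicate 3 was left out. Over all genes 6.52% passed as higher and 4.66% as lower, and 13.4% and 11.8% had an unadjusted p under 0.05, so that these counts are near the background. The log2 fold changes were -0.19 for *S100a10*, -0.054 for *Anxa2*, -0.098 for *Plgrkt* and 0.17 for *Eno1*. Of the matrix genes, *Fn1*, which encodes the plasmin substrate fibronectin, had 9304, 12092 and 10679 normalised counts in control and 6263, 6408 and 5656 with DHT, a log2 fold change of -0.80 (adjusted p = 0.00062, limma). *Thbs1*, the most abundant gene of the list per kb, had a log2 fold change of -0.28 (adjusted p = 0.053, limma). It was called lower by edgeR (adjusted p = 0.022), by DESeq2 (adjusted p = 0.00012), under quantile normalisation and without control replicate 1 (adjusted p = 0.0068 and 0.03, limma). *Hgfac*, the protease that activates hepatocyte growth factor, rose by 0.95 on the log2 scale on 26.9 to 79.4 normalised counts (adjusted p = 0.045, limma), a call that was lost in 7 of 16 alternatives, among them without control replicate 2 or 3 or any of the DHT replicates. The general inhibitors *A2m* and *Serping1* had log2 fold changes of 0.59 and 0.34 on at most 72 reads per library and did not pass (adjusted p = 0.17 and 0.51, limma).

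**Figure D4:**
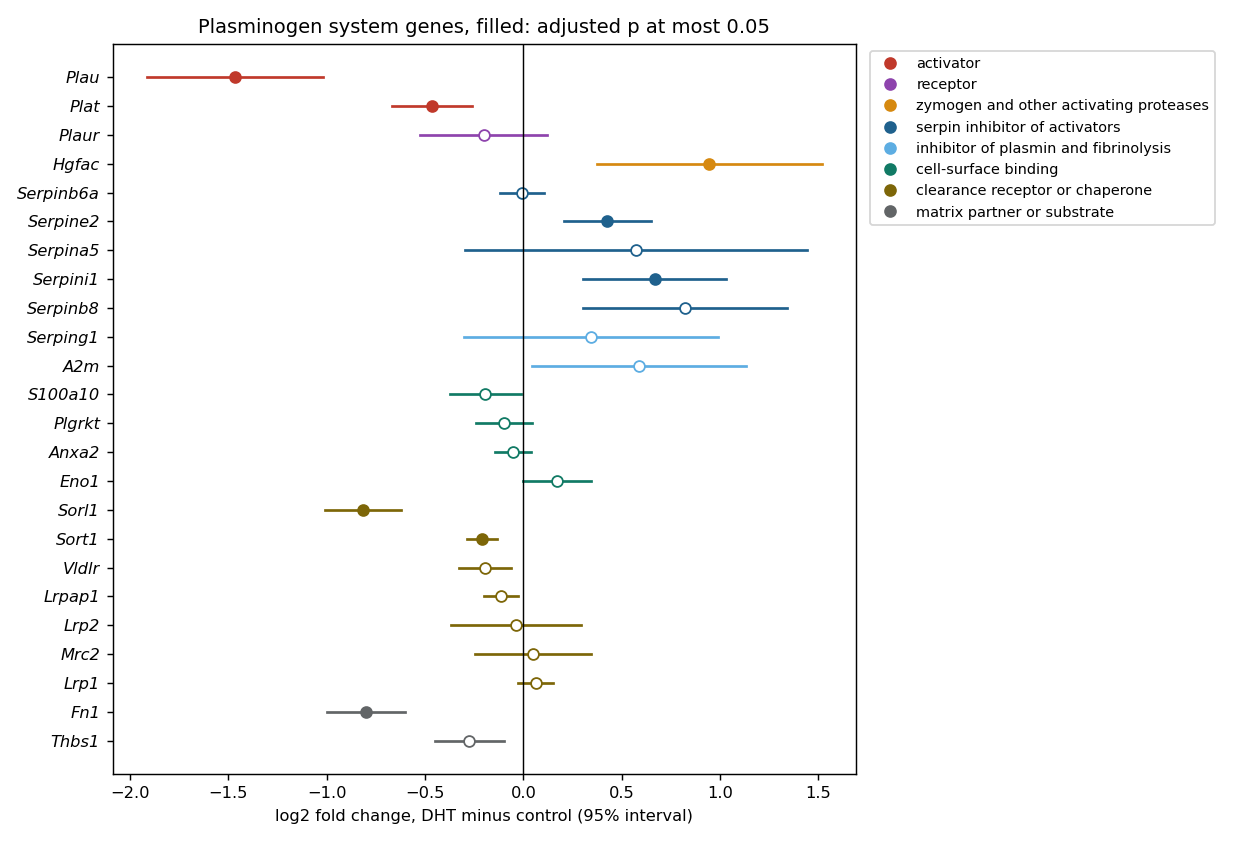
Log2 fold change, DHT minus control, with its 95% interval for the 24 measured genes of the wider list, coloured by role. Filled points passed at an adjusted p of at most 0.05: 3 of 24 lie to the right of 0 and 5 to the left, against 6.52% and 4.66% of all genes tested, with *Plau* at -1.47 farthest from 0. The 3 on the right drop to 0 without the intensity trend or without DHT replicate 1, 2 or 3.

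None of the 4 genes shared exonic bases with another annotated gene. Of the listed genes that passed, *Sorl1*, *Sort1* and *Fn1* share 1.63%, 4.47% and 2.5% of their exonic bases with a gene on the opposite strand.

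The genes whose pattern over the 6 libraries was most like each of the 4 were found by the root mean square difference of centred log2 values, over 11633 genes averaging 100 normalised counts or more. *Plau* was most like *Mab21l3*, *Reln* and *Gm11843*, at 0.18, 0.19 and 0.22 log2 units. *Plat* was most like *Tnxb*, *Zfp383* and *Tgfa*, at 0.047, 0.048 and 0.059. *Serpine2* was most like *Slco3a1*, *Gfpt2* and *Thbs3*, at 0.034, 0.041 and 0.050. *Plaur* was most like *Prx*, *Dancr* and *Gm21451*, at 0.055, 0.073 and 0.078. The distances of *Plau* were the largest in these units. They are not scaled by the spread of a gene, which was largest for *Plau*. They therefore do not show that its pattern was less shared.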

How the data were processed

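Total RNA from cultured GCs was sequenced as paired reads. According to the processing notes of the submitters, reads were trimmed with Trimmomatic 0.36, mapped to GRCm38 with STAR 2.5.2b and counted with featureCounts of Subread 1.5.2. The annotation release and the strand setting are not given in the sources used here. The deposited signal is a normalised count per gene, made by the authors as the reads divided by a DESeq2 size factor. The authors also deposited fold changes and p-values of their own comparison, and a second table of selected genes; neither was used.

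Whole reads were recovered from the common step of each library for 100% of values, within 0.01 read, and summed to 36111177 to 41928585. Groups were taken from the treatment characteristic, because the treatment text of the labels names DHT for every sample. The replicates are 3 pools per group by the study's methods. An exact permutation test of 3 against 3 cannot give a p below 0.1.

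The moderated test of limma 3.58.1 (R 4.3.3) was fitted with an intensity trend on log2(value + 1) for genes averaging 10 or more, and p-values were adjusted by Benjamini-Hochberg over all of them. Fold changes are on that scale, which understates changes of low genes. Alternatives were pseudocounts of 0.5 and 8, no filter, a mean of at least 50, quantile normalisation, TMM scaling, no trend, the replicate number as a block, edgeR 4.0.16 and DESeq2 1.42.0 on the recovered reads, and each library left out. The fits were checked on simulated counts. Exonic lengths and positions came from GENCODE M21, in which 16259 of 16300 identifiers were found.

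The 4 genes, the wider list and the marker lists were chosen with earlier results of these data known. The rule for naming genes took the 4 genes and the 3 genes closest in pattern to each of the 4. From the wider list it took those that passed or are activators, receptors or inhibitors of the activators. The other measured genes of that list were to be counted only, but all of them are given with values. The cell type markers named, from their fixed lists, and the positional neighbours also fall outside the rule and were chosen after their values were seen. An item of the wider list is not reported here and is left out of its counts.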

Additional observations from a re-analysis of the deposited data

How the results depend on the processing

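Across 16 alternatives, *Plau* kept its direction and its call (log2 fold change -1.71 to -1.26, adjusted p 3.3e-06 to 0.042), and *Plaur* passed in none (adjusted p 0.24 to 0.73, limma, edgeR or DESeq2). *Plat* lost its call only without the intensity trend (-0.46, adjusted p = 0.065, limma), and *Serpine2* lost it there (0.43, adjusted p = 0.12) and under quantile normalisation (0.27, adjusted p = 0.10), and also without DHT replicate 1, 2 or 3 (adjusted p = 0.068, 0.070 and 0.098), with a log2 fold change of 0.303 to 0.527 over the fits that left out 1 library. The cause of these losses was not tested. Without the trend 501 genes passed as higher and 303 as lower, 40 passed both thresholds as lower, 1 of the 4 genes passed and 0 of the wider list passed as higher. With a mean of at least 50, 42 genes passed both thresholds as lower. With each library left out, 586 to 1240 genes passed as higher, 351 to 863 as lower, 41 to 91 passed both thresholds as lower, and 0 to 2 of the wider list passed as higher. The replicate numbers were not taken to pair the libraries, since the deviations of same-numbered libraries correlated at 0.0058, 0.067 and -0.24. With the replicate block, 633 genes passed as higher, 357 as lower and 1 of the wider list as higher (*Serpine2*), and *Plau*, *Plat* and *Serpine2* had adjusted p of 0.0052, 0.039 and 0.050 (limma). The median log2 fold change of all genes lay between -0.014 and -0.0034 under the scalings run. Fewer reads lay behind *Plaur* (127 to 216 per library) than behind *Plau* or *Serpine2*. The SE of its log2 fold change, 0.14, was nonetheless below the 0.20 of *Plau*.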

Other observations

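The nearest measured genes on either side were examined after the data were seen. *Camk2g*, 42.6 kb from *Plau*, fell by 0.26 on the log2 scale (adjusted p = 0.0036, limma), and *Vcl*, which encodes vinculin, 86.0 kb away on the other side, rose by 0.17 (adjusted p = 0.033, limma). The neighbours of *Plat* (*Ikbkb* and *Ap3m2*), of *Plaur* (*Smg9* and *Cadm4*) and of *Serpine2* (*Mrpl44* and *Cul3*) did not pass, with log2 fold changes between -0.083 for *Mrpl44* and 0.19 for *Cadm4*. Both neighbours of *Plau* moved far less than *Plau* itself, and in opposite directions.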
